A study of Mus musculus with 8 samples.

Results

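Gene expression was compared between fibroadipogenic progenitors of mice bearing a pancreatic tumour with miR-27a inhibited and of sham-operated mice. The comparison rests on 5 of the series' 8 libraries and on the 13272 of 24419 gene symbols that had at least 10 reads in 2 or more of those 5. Each library is RNA of progenitors sorted from the hindlimb muscle of a male C57BL/6J mouse. Sham mice (n = 2) had sham surgery and no tumour. Knockdown mice (n = 3) received 50 µL of KPCY cells in the pancreas; KPCY is a line of mouse pancreatic cancer cells. These cells carried a lentiviral vector that inhibits miR-27a-3p and had been selected for 7 days with puromycin at 2 µg/mL. The remaining 3 libraries (scrambled) come from mice given KPCY cells with a scrambled vector. The inhibitor was therefore in the implanted cells and not in the sorted progenitors. Sham and knockdown mice differ in the tumour, in the injected cells and in the vector, and these cannot be told apart between the 2 groups. Each arm used 1 transduced line, and the labels give no ages, collection times, tumour sizes or sorting days.

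Fibroadipogenic progenitors are stromal cells that lie between the fibres of skeletal muscle. They make matrix, cytokines and growth factors for muscle stem cells and fibres, and can turn into fibroblasts or fat cells. Muscle wasting in cancer, called cachexia, is accompanied by circulating cytokines and glucocorticoids to which these stromal cells can respond. MicroRNAs such as miR-27a repress transcripts that pair with their seed, and Pparg, the transcription factor that drives fat cell formation, is a reported target. The mature RNA against which the vector was directed is shown because it defines the tumour group. Its seed (bases 2 to 8) is in capitals, and it lies at chr8:84208727-84208747 on the plus strand (GRCm38.p6, RefSeq).
mmu-miR-27a-3p: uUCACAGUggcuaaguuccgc
The gene of its precursor had 0 reads in all 5 libraries and 12, 12 and 3 reads in the scrambled ones. Counting error alone lets 0 stand for as many as 3 reads. The inhibitor was in the implanted cells, so the inhibition could not be checked in RNA of the progenitors. Mature microRNA also has no poly(A) tail and is missed by mRNA libraries.

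Sham libraries had total counts of 15647436 and 17384878, and knockdown libraries had between 17454630 and 22197054. The marker receptor Pdgfra was at 1459 ± 244 normalised CPM in sham and 1502 ± 16.6 in knockdown libraries (CPM, counts relative to the library's total after TMM scaling; mean ± SD). Ly6a, which encodes the SCA-1 of the sort, stood at 966 ± 11.2 and 1135 ± 74.3 CPM (log2 difference 0.23 ± 0.11 SE; edgeR, adjusted p = 0.532). Pecam1, Itga7 and Ptprc, which encode proteins the sort excluded, had group means of at most 44.6, 5.79 and 1.31 CPM. Knockdown library 2 stood apart from the others: it lay at 53.2 on the first principal component (46.6% of the variance) against a range from -31.2 to 8.14, and was the farthest of its group from the middle library in 50.4% of genes. Knockdown libraries 1 and 2 also held transcripts of skin epithelium. Krt5, a keratin of the basal epidermis, had 730 and 1445 reads there, and 0 reads in knockdown library 3 and in both sham libraries. A list of 26 keratinocyte genes, put together after the reads were seen, summed to 217 and 402 CPM in knockdown libraries 1 and 2, 35.1 in knockdown library 3, and 29.4 and 26.1 in the sham libraries. None of the 25 that were tested was called by edgeR (3 at an unadjusted p under 0.05; 1 called by DESeq2 and 0 by limma-voom). The scrambled libraries held 299, 51.0 and 30.6 CPM of the same list. Counts of genes called are therefore also given for knockdown library 3 against the sham libraries.

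By edgeR's quasi-likelihood test 71 genes rose and 28 fell from sham to knockdown libraries at an adjusted p under 0.05, which is 0.535% and 0.211% of those tested (0.746% in all). The rises had a median log2 change of 1.02, from 0.56 to 4.05, and 37 of them were at least 2-fold. The falls were smaller, with a median of -0.82 and 6 genes of at least 2-fold. Levels of the 2 groups did not overlap for any of the 99 genes, which was so for 27.4% of all genes tested. All genes together had a median log2 change of -0.00. Among all 13272 genes tested, 1334 had an unadjusted p under 0.05. DESeq2 called 209 higher and 102 lower, and limma-voom 68 and 22. These numbers over all genes belong beside the counts of the same kind given for the lists. In bulk libraries, fewer cells of a kind and less RNA per cell cannot be told apart. These counts come from the 5 libraries alone, chosen because the scrambled libraries were known to spread more widely. With all 8 libraries in 1 fit and a shared dispersion, 1 gene (C4b, 0.00753% of those tested) rose and 0 fell (319 genes at an unadjusted p under 0.05, against 1334 from the 5 libraries). The number called also turned on the sham pair: it was 30 higher and 8 lower without sham library 1, and 157 and 141 without sham library 2. Without knockdown library 1 the counts were 41 and 8, without library 2 they were 62 and 17, and without library 3 they were 87 and 16. With knockdown library 3 as the only tumour library, 100 genes were higher and 43 lower. There 98 of the 99 genes were tested and 58 were called. Of the 99 genes, 26 were called whichever library was left out.

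**Figure D1:**
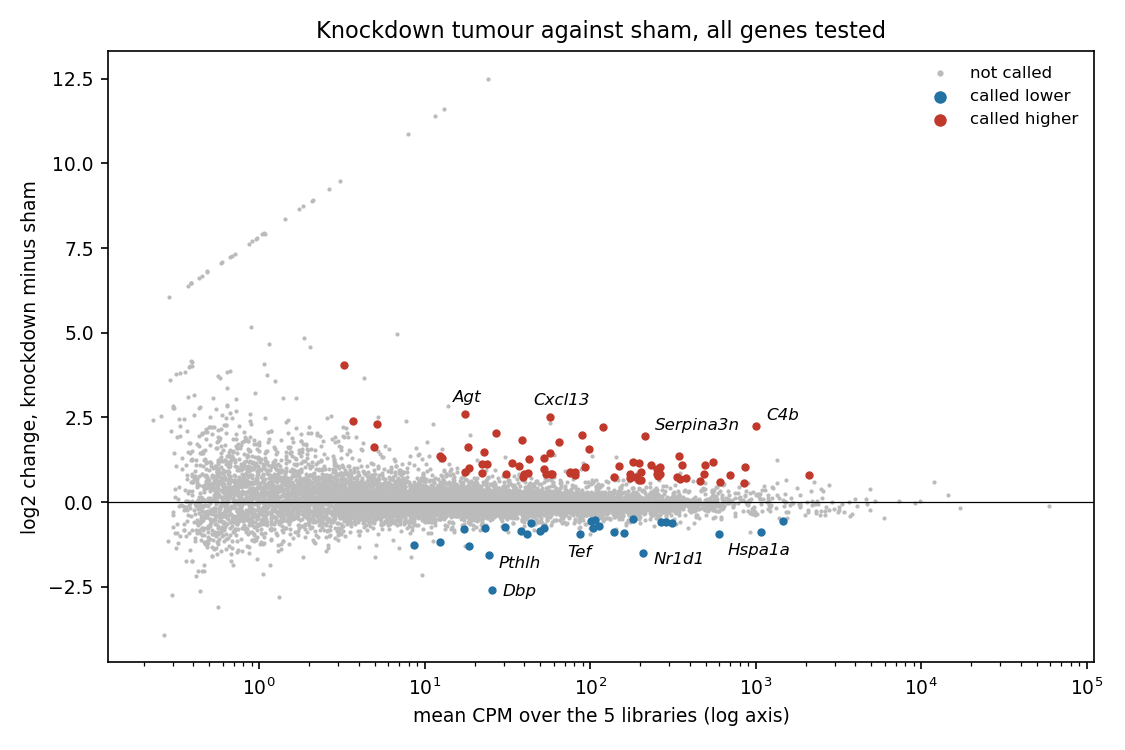
Log2 change from sham to knockdown libraries (vertical axis) against mean CPM over the 5 libraries (log axis) for the 13272 genes tested. The 71 genes called higher are red and the 28 called lower are blue. The grey points in a line at upper left, up to a fitted 12.5, are genes with 0 reads in both sham libraries, none of them called; 17 of these 32 genes are keratinocyte genes.

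Several of the largest rises were in genes of secreted proteins. Agt (chr8:124556534-124569706, minus strand, mm10), which encodes the precursor of angiotensin, stood at 3.11 and 5.44 CPM in sham libraries 1 and 2, and at 26.1, 30.6 and 22.4 CPM in knockdown libraries 1, 2 and 3. Every knockdown library was thus above the higher sham library, and the rise was 6.06-fold (log2 2.60 ± 0.25 SE; edgeR, adjusted p = 0.000938). Cxcl13, a chemokine that attracts B cells, went from 11.9 and 17.8 CPM to 94.6, 92.8 and 68.2 CPM, a 5.70-fold rise (log2 2.51 ± 0.21). C4b (chr17:34728380-34743882, minus strand), the fourth component of complement, went from 287 and 333 CPM to 1558, 1353 and 1501 CPM, 4.75-fold higher (log2 2.25 ± 0.13; adjusted p = 6.39e-05). It had the smallest p of all genes and was the 1 gene called under each of 14 alternative settings, though not with 8 libraries and a replicate block together. C4b has a near-identical neighbour in C4a, and how reads shared by the pair were counted is not given in the sources used here. Mmp3, an enzyme that degrades matrix proteins, rose 4.66-fold, from 37.5 and 37.3 CPM to 170, 231 and 122 CPM. Plac8, a small cysteine-rich protein, rose 3.58-fold, to 45.5, 73.0 and 45.3 CPM from 13.9 and 16.4 CPM. The rises of Mmp3 and Plac8 were no longer called when either sham library was left out (Mmp3 also without knockdown library 1), with log2 changes between 1.72 and 2.24 there. Among called genes Gpx3, the extracellular glutathione peroxidase, had the highest mean CPM; it went from 1430 ± 173 to 2518 ± 197 CPM (log2 0.82 ± 0.13; edgeR, adjusted p = 0.0203) and was called in 2 of the 5 fits that left out a library.

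**Figure D2:**
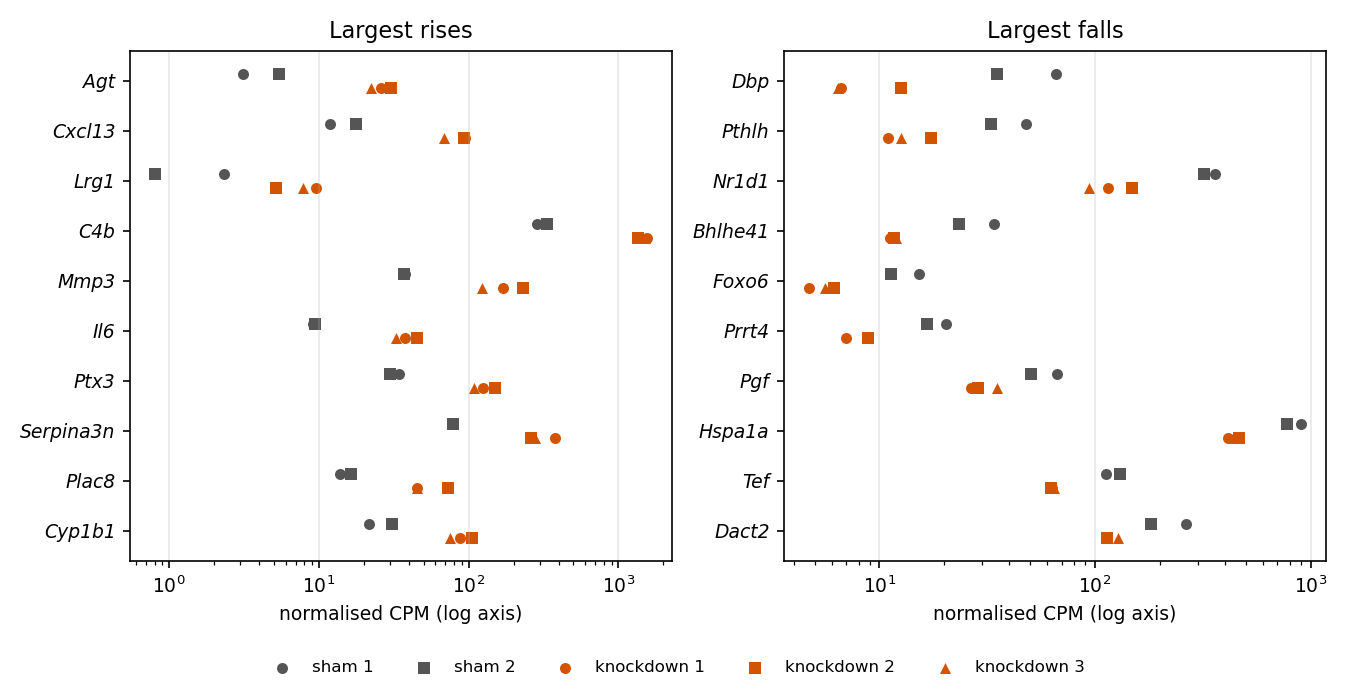
Normalised CPM (log axis) in each library for the 10 largest rises and the 10 largest falls among called genes with a mean of at least 5 CPM. Grey marks are sham and orange marks knockdown libraries; in each of the 20 genes all knockdown libraries lie on the same side of both sham libraries.

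Genes of the acute phase, which IL-6 induces through the transcription factor STAT3, were among the rises. Of 20 tested members of that list 9 rose (45%, against 0.535% of all genes) and 0 fell. All 20 had a positive log2 change, against 49.5% of all genes, and the median was 0.80. Il6 itself (chr5:30013114-30019981, plus strand) went from 9.20 and 9.40 CPM to 37.4, 45.5 and 33.0 CPM, a 4.14-fold rise (log2 2.05 ± 0.18; edgeR, adjusted p = 0.000938). Serpina3n (chr12:104406729-104414329, plus strand), a secreted inhibitor of serine proteases, went from 78.1 and 78.5 CPM to 375, 261 and 276 CPM (log2 1.96 ± 0.16). Sham values were close to each other for both genes, and knockdown library 2 was the highest for Il6 and the lowest for Serpina3n. Its relatives Serpina3m and Serpina3c were also called higher. The Serpina3 genes are near copies of each other, so the split of reads among them is uncertain. Hp, which encodes the haemoglobin scavenger haptoglobin, was at 6 and 4 reads in the sham and 110, 93 and 99 reads in the knockdown libraries (log2 4.05 ± 0.51). Lrg1, a secreted glycoprotein of the acute phase, was at 2.33 and 0.802 CPM against 9.50, 5.15 and 7.79 CPM (log2 2.30 ± 0.45; edgeR, adjusted p = 0.0490). Lcn2, the iron-binding lipocalin of the acute phase and of neutrophil granules, was at 34 and 11 reads in the sham and 169, 84 and 215 reads in the knockdown libraries (log2 2.52 ± 0.49, adjusted p = 0.0538). In both genes knockdown library 2 was the lowest of its group and sham library 2 the lowest of all. The 3 neutrophil markers tested (Lcn2, S100a9 and Csf3r) summed to 4.08 and 0.688 CPM in the sham and 13.0, 6.87 and 11.5 CPM in the knockdown libraries. All 3 had a positive change, and none was called by edgeR (1 at an unadjusted p under 0.05; 1 by DESeq2 and 0 by limma-voom). The part of neutrophils in these values was not tested. Cp, the copper carrier ceruloplasmin, rose by a log2 of 0.79, Cebpd, a transcription factor of the acute phase, by 0.81, Pim1, a kinase gene induced by STAT3, by 1.07, and Osmr, a receptor for oncostatin M, by 0.75. Stat3 (log2 0.28, adjusted p = 0.431) and Socs3, the feedback inhibitor of its pathway (0.43, 0.349), were not called. The number of members that rose was 2 without sham library 1 and 4 without knockdown library 1, and from 6 to 9 without each of the others. Serpina3n and Il6 were called in each of these 5 fits, Hp in 4, Cp, Cebpd and Pim1 in 3, and Lrg1, Osmr and Serpina3m in 1.

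Complement is a cascade of blood proteins that tags microbes and damaged cells. Of 13 complement genes tested, C4b included, 3 rose (23.1%, against 0.535% of all genes) and 0 fell. A positive change was found in 12 of them (49.5% of all genes), with a median log2 of 0.76. The 12 include C1qa, C1qb and C1qc, which also stand in the list of macrophage markers. Their knockdown means were only 2.14, 2.39 and 2.52 CPM, and their groups overlapped. Cfb, the factor B of the alternative pathway, went from 217 and 208 CPM to 459, 445 and 453 CPM (log2 1.09 ± 0.10; edgeR, adjusted p = 0.000938), with little spread in either group. C1ra, a protease that starts the classical pathway, rose by a log2 of 0.56, a call lost without sham library 1 (0.52) and without any of the knockdown libraries (0.54 to 0.59). C3, the protein on which the pathways meet, had a log2 change of 0.60 (adjusted p = 0.0847) with groups that did not overlap.

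Genes activated by NF-kappa-B, a transcription factor of inflammation, gave 0 falls among 18 tested (median 0.52). A positive change was found in 12 of the 18 (49.5% of all genes). In 6 it was negative, among them Nfkb1 (log2 -0.03), Nfkb2 (-0.21) and Relb (-0.10). Groups did not overlap in 11 higher and 2 lower members, against 13.7% of all genes in each direction. The list gave 5 rises, which is 27.8% against 0.535% of all genes. Besides Il6 these were Ptx3, Icam1, Nfkbiz and Il1r1. Ptx3, a soluble pattern recognition protein, went from 34.4 and 29.7 CPM to 125, 151 and 108 CPM (log2 1.99 ± 0.16; edgeR, adjusted p = 0.000730). The adhesion molecule Icam1 rose by a log2 of 1.02, Nfkbiz, a nuclear cofactor, by 0.88, and the interleukin-1 receptor Il1r1 by 0.83. In all 4 genes knockdown library 2 was the highest of the 5 libraries. The count of rises was 2 without sham library 1, 3 without sham library 2 or knockdown library 2, and 7 without knockdown library 3. Ptx3 and Il6 were called in all 5 of these fits, Icam1 in 3, and Nfkbiz and Il1r1 in 2. Among 16 chemokine genes tested 2 rose (12.5%, against 0.535% of all genes) and 0 fell (median 0.63). The rises were Cxcl13 and Cxcl12, which retains blood-forming and immune cells through its receptor CXCR4. Cxcl12 rose by a log2 of 0.75 ± 0.12 and was called in 2 of the 5 fits. Ccl2, which attracts monocytes, had a log2 change of -0.03 (adjusted p = 0.988) and overlapping groups. Interferon response genes (25 tested) and genes of MHC class I (13 tested) had no call by edgeR, with 8 and 6 members at an unadjusted p under 0.05. DESeq2 called 1 in each list and limma-voom 0. A positive change was found in 21 and 12 members (medians 0.28 and 0.31), against 49.5% of all genes. In 12 interferon and 5 MHC class I members every knockdown library was above both sham libraries (13.7% of all genes). Outside these lists Ifi205, Mnda and Ifi204, of the interferon-inducible p200 family, rose by log2 changes of 1.37, 0.79 and 0.66. They were picked after their values were seen, and were called in 5, 4 and 2 of the 5 fits.

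Macrophage transcripts were present at low levels beside these genes. Summed over 11 tested macrophage markers, CPM was 21.8 and 18.1 in the sham and 56.6, 15.4 and 35.3 in the knockdown libraries. None was called by edgeR (2 at an unadjusted p under 0.05; 0 by DESeq2 and 0 by limma-voom), and their median log2 change was 1.28. Ptprc, the CD45 carried by all white blood cells, was at 6 and 1 reads in sham and 49, 1 and 29 reads in knockdown libraries. Knockdown library 2 had the least of both among the knockdown libraries. Of the 71 genes called higher, 33 were at the lowest of their 3 knockdown values in library 2, C4b, Serpina3n, Lrg1 and Adm among them, and 23 at the highest, Agt, Il6 and Ptx3 among them. In knockdown library 1, which had the most of both, 37 were at the highest and 12 at the lowest. Knockdown library 2 was the farthest of its group from the middle library in 50.4% of all genes. No share over all genes was set beside these ranks. The part of macrophages in these rises was not tested, and the ranks cannot decide it. None of 10 lymphocyte markers and none of 9 markers of mature fat cells had enough reads to be tested, and 1 and 4 of these had 0 reads in all 5 libraries. None of 12 endothelial markers was called by edgeR (6 at an unadjusted p under 0.05; 2 by DESeq2 and 0 by limma-voom), Pecam1 among them (log2 0.80, adjusted p = 0.131).

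The promoters of 4 of the 20 genes with the largest changes are shown for the binding motifs they hold. They are RefSeq windows from 250 bases before to 50 after the start (GRCm38.p6), and the capitals mark the match. The Agt window (chr8:124569657-124569956, minus strand) holds TTCNNNGAA, the letters bound by STAT factors, 172 bases before the start.
Agt: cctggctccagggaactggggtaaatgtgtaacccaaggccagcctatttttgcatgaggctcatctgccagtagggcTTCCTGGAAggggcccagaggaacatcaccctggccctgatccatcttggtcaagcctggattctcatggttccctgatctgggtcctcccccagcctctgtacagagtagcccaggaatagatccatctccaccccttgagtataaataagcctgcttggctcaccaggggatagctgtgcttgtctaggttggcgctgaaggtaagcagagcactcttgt
Windows of Il6 (chr5:30012864-30013163, plus strand) and Ptx3 (chr3:66219637-66219936, plus strand) hold the same 8 letters of TTNNGNAA, a motif of C/EBP factors, 128 and 57 bases before the start.
Il6: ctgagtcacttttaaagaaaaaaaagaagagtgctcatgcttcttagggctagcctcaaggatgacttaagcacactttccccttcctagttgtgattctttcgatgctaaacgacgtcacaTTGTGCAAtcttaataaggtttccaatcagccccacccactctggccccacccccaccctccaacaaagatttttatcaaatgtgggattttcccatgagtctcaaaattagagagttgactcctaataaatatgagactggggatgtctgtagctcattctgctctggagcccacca
Ptx3: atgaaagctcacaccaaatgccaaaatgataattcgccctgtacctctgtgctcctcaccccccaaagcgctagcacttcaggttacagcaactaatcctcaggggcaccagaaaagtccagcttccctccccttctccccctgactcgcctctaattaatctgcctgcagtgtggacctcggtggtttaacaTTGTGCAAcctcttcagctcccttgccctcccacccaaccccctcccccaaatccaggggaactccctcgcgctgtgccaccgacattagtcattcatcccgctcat
The Tef window (chr15:81802423-81802722, plus strand) holds CACGTG, the E-box bound by CLOCK and BMAL1, 127 bases before the start.
Tef: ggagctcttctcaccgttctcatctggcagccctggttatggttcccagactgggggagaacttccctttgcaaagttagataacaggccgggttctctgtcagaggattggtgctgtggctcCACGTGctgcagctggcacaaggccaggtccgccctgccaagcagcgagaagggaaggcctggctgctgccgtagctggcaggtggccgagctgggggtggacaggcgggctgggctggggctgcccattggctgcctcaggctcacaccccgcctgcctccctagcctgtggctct
Of the 20 genes with the largest rises and falls 18 had a window in the RefSeq table, 9 in each direction. On either strand, 8.3% of all 32851 windows held the STAT letters, 40.7% the C/EBP letters and 7.15% the E-box. Among the 9 genes that rose 1 held the STAT letters, 6 the C/EBP letters and 0 the E-box. Among the 9 that fell these numbers were 1, 3 and 2. A gene counted if any of its windows held the letters, while the shares are per window. Some genes, such as Plac8 and Tef, had more than 1 window, so counts and shares are not on the same scale. The full palindrome of the glucocorticoid receptor (0.00913% of all windows) and the SREBP letters TCACNCCAC (1.24%) were in none of the 18 genes' windows. A match is a description of these letters and not of binding.

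Glucocorticoids, the stress hormones of the adrenal gland, and fasting induce a shared set of genes. Of 24 tested, 8 rose (33.3%, against 0.535% of all genes) and 0 fell, and the median log2 change was 0.60. In 20 members every knockdown library was above both sham libraries (13.7% of all genes were higher without overlap). Tsc22d3, the glucocorticoid-induced leucine zipper, went from 335 and 289 CPM to 849, 644 and 646 CPM (log2 1.19 ± 0.15; edgeR, adjusted p = 0.00515). Cdkn1a, the p21 inhibitor of the cell cycle, went from 105 and 123 CPM to 275, 223 and 256 CPM (log2 1.14 ± 0.13). In both genes knockdown library 1 was the highest. Errfi1, a feedback inhibitor of the EGF receptor, rose by a log2 of 1.03, and Klf9, a transcription factor that glucocorticoids induce, by 0.83. Pdk4, which blocks the entry of pyruvate into the mitochondrial cycle during fasting, rose by a log2 of 0.85 ± 0.16. Glul, which makes glutamine, and Gadd45g, a stress gene, rose by 0.61 and 0.67, and Cebpd stands in this list too. Fkbp5, another gene the hormone induces, was at a log2 change of -0.04 (adjusted p = 0.953), and the receptor gene Nr3c1 at -0.13 (0.737). Per1, a clock gene with the same induction, was at 0.42 (0.134) with groups that did not overlap. The count of rises was 4 without sham library 1 or knockdown library 1 and 12 without sham library 2. Tsc22d3, Cdkn1a and Klf9 were called in all 5 of these fits, Errfi1 in 3, Pdk4 in 2, and Glul and Gadd45g in 1.

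Clock genes moved in opposite directions. Of 18 tested, 5 fell and 1 rose (33.3% called, against 0.746% of all genes). Groups did not overlap in 7 lower and 5 higher members, against 13.7% of all genes in each direction. Dbp, a clock output factor, was at 66.1 and 35.2 CPM in the sham and 6.60, 12.6 and 6.40 CPM in the knockdown libraries, 6.00-fold lower (log2 -2.59 ± 0.37; edgeR, adjusted p = 0.0459). Nr1d1 (chr11:98767932-98775333, minus strand), the repressor REV-ERBα, went from 359 and 320 CPM to 115, 148 and 93.7 CPM (log2 -1.51 ± 0.17). The libraries of a group differed less for Tef (chr15:81802421-81826863, plus strand), a relative of Dbp, which went from 112 and 130 CPM to 63.3, 62.4 and 64.4 CPM (log2 -0.94 ± 0.11; adjusted p = 0.00320). Bhlhe41, a repressor also called DEC2, fell by 1.30 and Per3 by 0.85 on the log2 scale. Nfil3, which binds the sites of Dbp and Tef as a repressor, rose from 34.5 and 55.9 CPM to 158, 109 and 135 CPM (log2 1.56 ± 0.23). The core activators Arntl (log2 0.41, adjusted p = 0.189) and Clock (0.28, 0.443) and the repressors Cry1 (0.62, 0.251) and Per2 (0.22, 0.808) were not called. Nr1d2, the close relative of Nr1d1, was not called either (-0.61, 0.150). Dbp lost its call without knockdown library 1 (log2 -2.44) or 3 (-2.40), and Nr1d1 (-1.43) and Bhlhe41 (-1.01) without sham library 1. Nfil3 kept its call in 4 of these 5 fits and Per3 in 1, while Tef kept it in all 5. Clock transcripts cycle over the day, and the time of day at which each mouse was sampled is not in the labels, so group and time cannot be told apart.

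**Figure D3:**
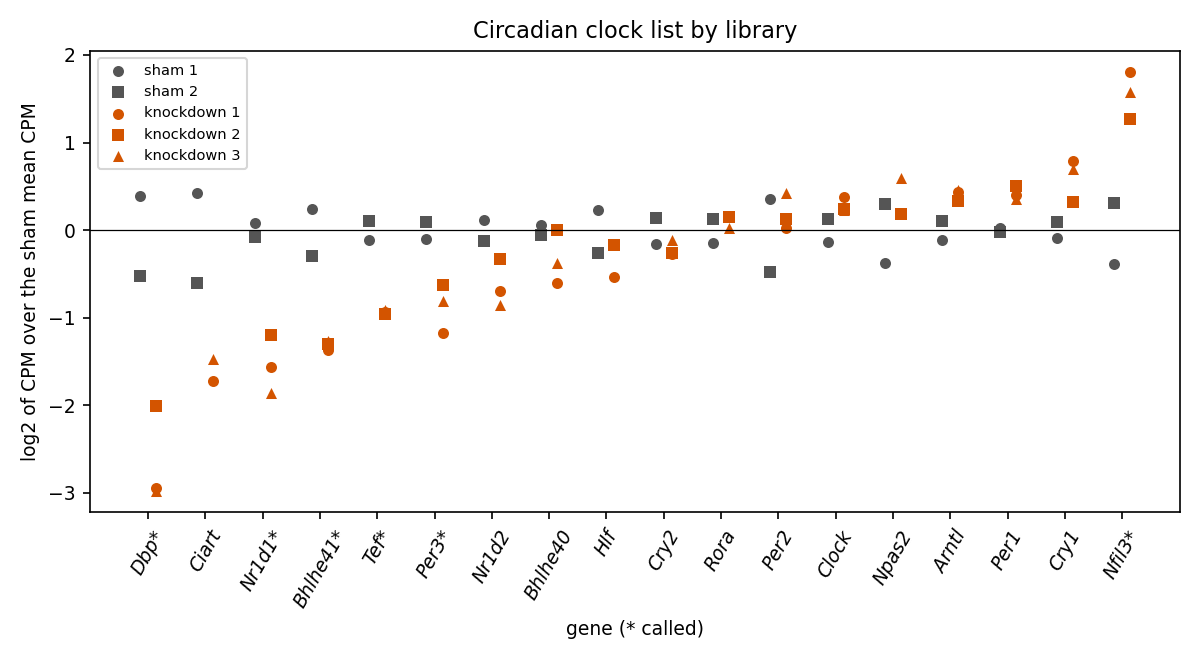
Log2 of each library's CPM over the sham mean for the 18 clock genes tested, ordered by change; grey marks are sham and orange marks knockdown libraries, and asterisks mark called genes. Dbp to Per3 lie below the sham values and Nfil3 above them; Ciart, which was not called, has no mark for knockdown library 2, where it had 0 reads.

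Among secreted factors that act on muscle, bone or vessels, changes went both ways. Pthlh, which encodes the parathyroid hormone-related protein, went from 47.7 and 33.0 CPM to 11.0, 17.3 and 12.6 CPM, 2.96-fold lower (log2 -1.57 ± 0.21; edgeR, adjusted p = 0.00941). Pgf, a placental growth factor of the VEGF family, fell by 0.95 and Wnt10b, a ligand that holds back fat cell formation, by 0.76 on the log2 scale. Neither stands in the growth factor list counted below. Gas6, the ligand of TAM receptors, rose by 0.82, from 306 and 362 CPM to 664, 552 and 558 CPM, and Bmp5, a bone morphogenetic protein, by 0.85. In the list of 25 growth factors tested, 3 rose and 1 fell (16% called, against 0.746% of all genes, median 0.10). Of 15 vasoactive genes, 3 rose and 1 fell (26.7% called, median -0.00). Besides Agt the rises were Adm, the vasodilator adrenomedullin (log2 1.05 ± 0.18), and Ptgs2, the inducible cyclooxygenase (0.71 ± 0.11). The fall was Ramp2, a part of the adrenomedullin receptor, by 0.51 on the log2 scale. Ptgs1, the constitutive cyclooxygenase, which is not in the list, fell by 0.74. The fall of Pthlh and the rise of Bmp5 were not called without sham library 1 (log2 -1.28 and 0.72). Adm was not called when either sham library or knockdown library 1 was left out (0.94 to 1.11), and Ptgs2 without sham library 1 or knockdown library 1 or 2 (0.64 to 0.71). Pgf was called in 2, Wnt10b and Gas6 in 3, and Ramp2 and Ptgs1 in 1 of the 5 fits that left out a library.

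The remaining falls included heat shock and actin genes, 2 groups listed after their values were seen. Hspa1a, an inducible HSP70 chaperone, was at 904 and 780 CPM in sham and 414, 466 and 438 CPM in knockdown libraries, 1.91-fold lower (log2 -0.94 ± 0.11; edgeR, adjusted p = 0.00438). Hspa1b, its near-identical neighbour, had 1478 ± 48.6 CPM in sham and 795 ± 57.1 in knockdown libraries (log2 -0.90 ± 0.11), and reads of the pair cannot be assigned with certainty. Cryab, a small chaperone, fell by 0.52, which makes 3 falls and 0 rises among 16 heat shock genes (median -0.23). The falls are 18.75% of that list, against 0.211% of all genes. Hspa1a and Hspa1b also stand in the list of immediate early and dissociation stress genes. There 2 of 25 members rose and 2 fell (16% called, against 0.746% of all genes). The rises were Myc (log2 0.84 ± 0.12) and Fosl2 (0.67 ± 0.13), called in 5 and 1 of the 5 fits that left out a library. In the actin group 6 of 28 genes fell (21.4%, against 0.211% of all genes) and 0 rose (median -0.27). Since the heat shock and actin lists were made after the values were seen, their counts are no result about either family. Actb, the cytoplasmic β-actin often used as a reference gene, went from 1814 ± 60.4 to 1222 ± 38.3 CPM (log2 -0.57 ± 0.11; adjusted p = 0.0429). Plec, a linker of the cytoskeleton, and Flnc, a filamin that crosslinks actin, each fell by 0.60, and Cdc42ep2, an effector of the small GTPase CDC42, by 0.86 on the log2 scale. Cdc42ep2, Hspa1a and Hspa1b were called whichever library was left out. Actb was called only without sham library 2 (log2 -0.54 to -0.60 in the others), Flnc likewise (-0.46 to -0.66), and Plec only without a sham library (-0.57 to -0.65 in the others). Foxo6, a forkhead factor, and Prrt4, a proline-rich transmembrane protein, fell by 1.27 and 1.16 on the log2 scale, from group means of 13.3 and 18.5 CPM; they were called in 2 and 3 of those fits.

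Matrix and progenitor genes were read by list. With 0.746% of all genes called, 0 calls in lists this short are no result about their genes. Among 21 matrix proteases and inhibitors tested 1 rose, Mmp3 (4.76%, against 0.535% of all genes), and 0 fell. None of 18 collagen genes was called by edgeR (2 at an unadjusted p under 0.05; 1 by DESeq2 and 0 by limma-voom), and their median log2 change was -0.07. Col1a1 stood at 7189 ± 2253 CPM in sham and 7353 ± 1640 in knockdown libraries. Of 30 other matrix genes 1 rose (3.33%, against 0.535% of all genes) and 0 fell. This was Lox, which crosslinks collagen and elastin, at 140 ± 26.3 CPM in sham and 297 ± 24.8 in knockdown libraries. Its log2 change was 1.09 ± 0.14, and it was called whichever library was left out. None of 17 identity genes of these progenitors was called by edgeR (4 at an unadjusted p under 0.05; 2 by DESeq2 and 0 by limma-voom). Genes of the subset of progenitors marked by Dpp4 and Pi16, thought to be the less committed cells, were also read. Of 16 tested, 1 fell (6.25%, against 0.211% of all genes) and 0 rose. The median was -0.36, and 13 of 16 were negative against 50.5% of all genes. In 11 members every knockdown library was below both sham libraries, against 13.7% of all genes. The call was Dact2, an antagonist of Wnt signalling, at 264 and 182 CPM in sham and 114, 114 and 128 CPM in knockdown libraries (log2 -0.91 ± 0.15; edgeR, adjusted p = 0.0230), lost without sham library 1 (-0.62) or knockdown library 1 or 2 (-0.88). Dpp4 itself had a log2 change of 0.09 (adjusted p = 0.850) and Pi16 one of -0.28 (0.507).

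In lipid metabolism, Cd36, the fatty acid transporter, went from 24.2 and 21.9 CPM to 60.1, 41.9 and 65.9 CPM. Its log2 change was 1.28 ± 0.19 (edgeR, adjusted p = 0.0171). It was the 1 call among 18 adipogenic genes (5.56%, against 0.746% of all genes). The call was lost when either sham library was left out (log2 at least 1.21). Of the 24 genes of cholesterol synthesis and its SREBP control, 22 had a negative change (50.5% of all genes did), with a median of -0.59. None of the 24 was called by edgeR (4 at an unadjusted p under 0.05, 0 called by DESeq2 and 0 by limma-voom). Their summed CPM was 1197 and 2396 in the sham libraries and 993, 1729 and 962 in the knockdown libraries, so the groups overlapped. Insig1, a gene of the SREBP control, shows the spread. It stood at 67.6 and 213 CPM in sham and 49.7, 112 and 57.7 CPM in knockdown libraries (edgeR, adjusted p = 0.742).

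Reported targets of miR-27a were read for completeness, as the inhibitor was in the tumour cells. Of 24 tested 1 rose (4.17%, against 0.535% of all genes) and 0 fell. A positive change was found in 19 (49.5% of all genes), and the median log2 change was 0.17. The call was Cyp1b1, an oxidising enzyme of steroids and foreign compounds, at 21.6 and 30.8 CPM in sham and 87.7, 106 and 75.7 CPM in knockdown libraries (log2 1.77 ± 0.19; edgeR, adjusted p = 0.00298), called whichever library was left out. Pparg had a log2 change of 1.14 ± 0.31 (adjusted p = 0.180), from 2.33 and 3.27 CPM to 5.97, 7.38 and 5.46 CPM, with groups that did not overlap. Mstn, which encodes the muscle growth inhibitor myostatin, was below 1 CPM in each library.

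Over the 30 lists, 18 held a called gene and 48 of the 99 called genes stood in at least 1 list. In the lists of housekeeping functions 0 of 25 ribosomal protein genes (median 0.03) and 0 of 25 genes of oxidative phosphorylation (median -0.10) were called by edgeR, DESeq2 or limma-voom, and none had an unadjusted p under 0.05. In oxidative phosphorylation 20 of 25 genes had a negative change (50.5% of all genes). In 10 of the 25 every knockdown library was below both sham libraries (13.7% of all genes). The 51 called genes outside the lists included Slc10a6, a steroid sulfate transporter (log2 1.31), Steap4, a metalloreductase (1.08), and Tnfaip6, which binds hyaluronan (1.19). They were picked after their values were seen. Some markers of other cells also moved. Among all 13272 genes tested, 1334 had an unadjusted p under 0.05, and DESeq2 called 209 higher and 102 lower. Of 10 genes of pericytes and smooth muscle, 8 had an unadjusted p under 0.05. EdgeR called 1 of the 10 (10%, against 0.746% of all genes), DESeq2 5 and limma-voom 1. Their median log2 change was 0.73, with 6 members higher and 2 (Des and Cspg4) lower without overlap, and the list summed to 263 and 286 CPM in the sham and 281, 273 and 353 CPM in the knockdown libraries. Rgs5, a pericyte gene, went from 12.2 and 15.4 CPM to 26.9, 29.2 and 35.2 CPM (log2 1.14 ± 0.18; edgeR, adjusted p = 0.0184). Of 9 Schwann cell genes 2 were called by edgeR (22.2%), 2 by DESeq2 and 2 by limma-voom, with 3 at an unadjusted p under 0.05 and a median of 0.36. Among them Mbp, which encodes myelin basic protein, rose by a log2 of 1.01 ± 0.17 (edgeR, adjusted p = 0.0279). Rgs5 lost its call without sham library 1 (log2 0.99), and Mbp was called in 1 of the 5 fits that left out a library. The summed CPM of the Schwann cell list was from 662 to 669 in the sham and from 635 to 656 in the knockdown libraries. What part such cells have in the results was not tested.

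**Figure D4:**
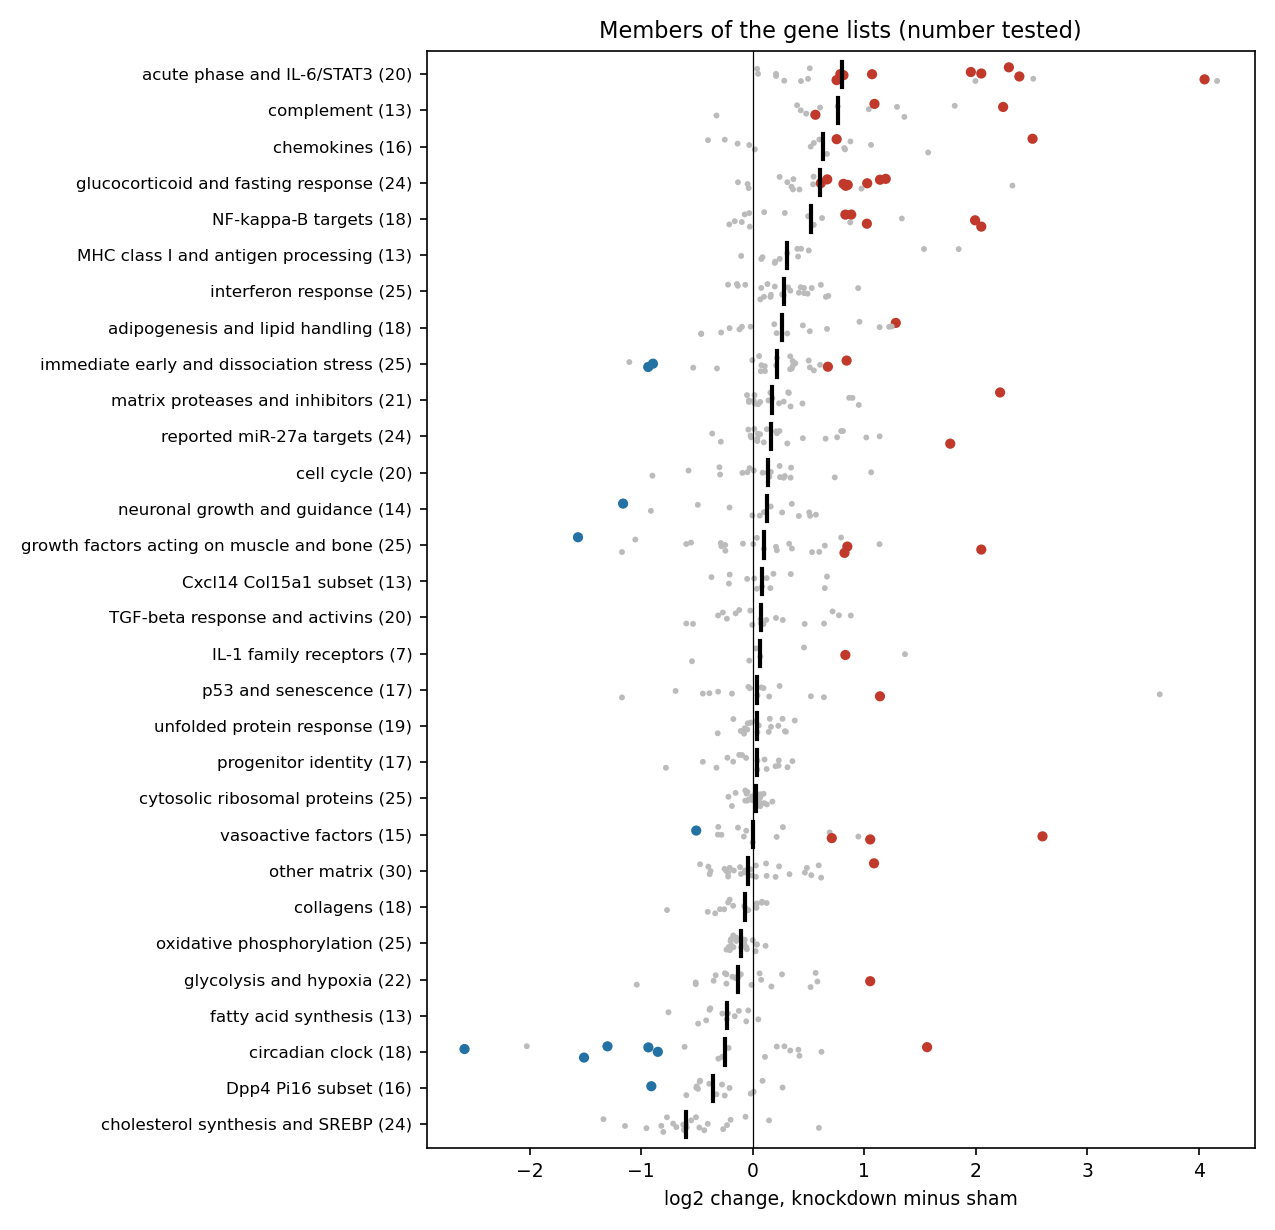
Log2 change from sham to knockdown libraries for each tested member of the 30 gene lists (number tested in brackets), with list medians as black bars, genes called higher in red and lower in blue. The medians run from 0.80 in the acute phase list to -0.59 in the cholesterol list, in which no gene was called.

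The scrambled tumour libraries show these genes in mice whose tumour cells carried a scrambled vector in place of the inhibitor. As each arm used 1 transduced line, line and inhibitor cannot be told apart there. To set the 3 groups side by side, all 8 libraries were scaled and fitted together, and the comparisons share libraries with each other. Of the 10 largest rises 9 had a knockdown mean between those of sham and scrambled libraries. These genes were picked by their sham and knockdown values, and no share over all genes was set beside the count. For Mmp3, Plac8 and Ptx3 the knockdown mean lay within 1 SD of the scrambled mean (edgeR, adjusted p = 0.640, 0.485 and 0.775). It lay farther below for Cxcl13, Lrg1 and Cyp1b1, which were not called either (0.0637, 0.0727 and 0.0730). Serpina3n stood at 76.0 ± 0.182 CPM in sham, 295 ± 59.7 in knockdown and 1658 ± 433 in scrambled libraries, C4b at 301 ± 31.3, 1428 ± 100 and 4011 ± 430 CPM, and Agt at 4.15 ± 1.60, 25.6 ± 3.96 and 89.2 ± 13.0 CPM. Between scrambled and knockdown libraries these 3 genes were called lower in the latter (log2 -2.49 ± 0.24, -1.49 ± 0.19 and -1.80 ± 0.22; edgeR, adjusted p = 0.0360, 0.0470 and 0.0470), a comparison in which 0.0377% of all genes were called lower and 0.0452% in either direction. Il6 was at 37.5 ± 6.20 CPM in knockdown and 37.4 ± 20.9 in scrambled libraries, and Ptx3 at 124 ± 20.8 and 142 ± 90.5 CPM. Their scrambled libraries were uneven, with Il6 at 55.0, 42.9 and 14.3 CPM. Of the 10 largest falls, 4 (Pthlh, Foxo6, Prrt4 and Dact2) had a knockdown mean between the other groups, again with no share over all genes beside the count. Pthlh stood at 39.2 ± 10.2 CPM in sham, 13.2 ± 3.19 in knockdown and 3.21 ± 1.83 in scrambled libraries, and Dact2 at 217 ± 56.6, 115 ± 7.98 and 27.5 ± 23.3 CPM. The clock genes were spread in scrambled libraries: Tef stood at 326, 84.5 and 283 CPM there, on either side of its sham mean of 118 ± 12.5. For the 10 falls, edgeR's adjusted p between knockdown and scrambled libraries ran from 0.0637 to 0.345. In all, 3 of the 20 genes were called between knockdown and scrambled libraries and 11 between scrambled and sham libraries (1.64% of all genes). Leaving out 1 library at a time, these numbers ran from 0 to 15 in both comparisons. The first was 15 without scrambled library 2, and 0 when any sham or knockdown library was left out; the second was 0 without sham library 1 and 15 without scrambled library 2.

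**Figure D5:**
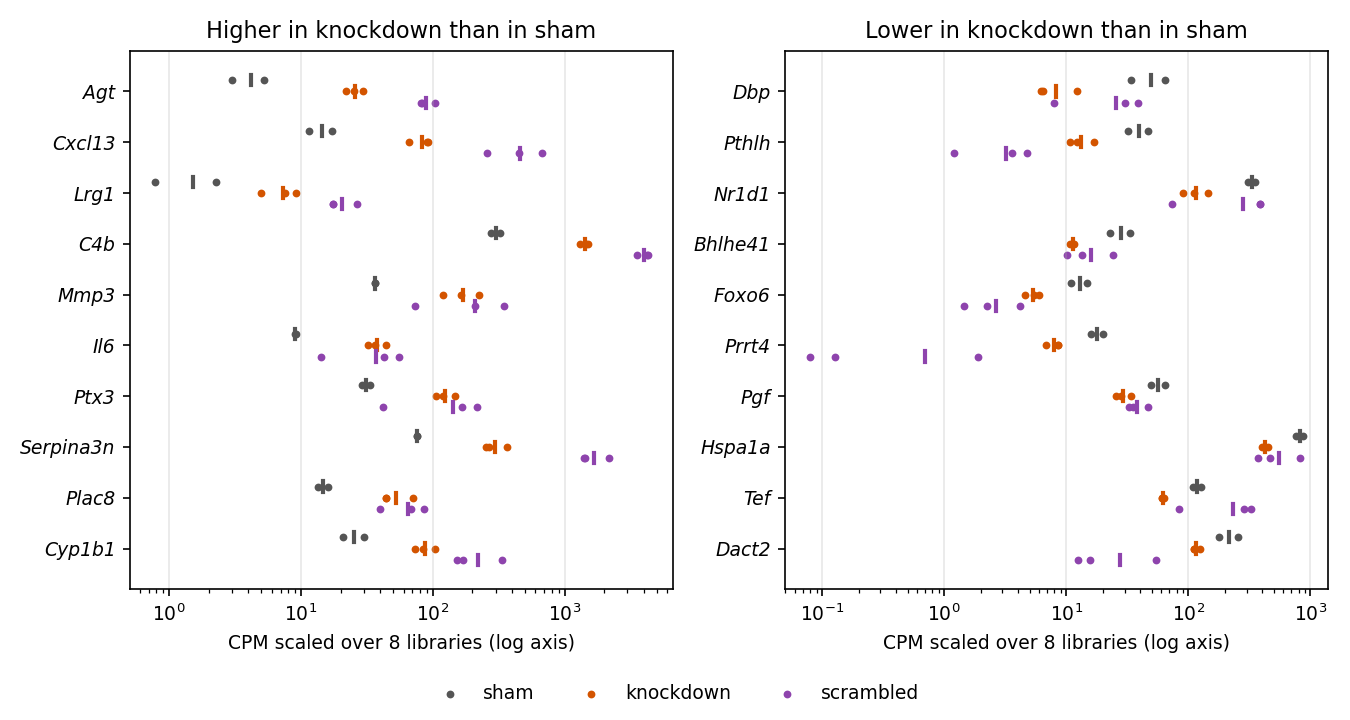
CPM (log axis, scaled over all 8 libraries) of the 10 largest rises and 10 largest falls in sham (grey), knockdown (orange) and scrambled (purple) libraries, with group means as bars. Knockdown values of Agt, C4b and Serpina3n lie between those of the other groups, while those of Il6 and Ptx3 overlap the scrambled values.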

How the data were processed

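Per the labels' protocols, the sort kept SCA-1 and Hoechst positive cells and removed those with CD31, CD45, α7-integrin or propidium iodide. Stranded mRNA libraries of biological replicates were read as pairs of 59 bases. The authors deposited raw counts of reads per gene symbol. Per the submitters' processing notes bcl2fastq 2.20, STAR, Bowtie, R 4.2.1 and DESeq2 1.36.0 were used, with mm10 as the build. How reads were counted, on which annotation and strand, is not given in the sources used here, so overlapping, antisense and near-identical genes may share reads. Coordinates came from GENCODE M21, which matched 95.66% of symbols.

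Counts were tested in R 4.3.3 with edgeR 4.0.16 (TMM, robust quasi-likelihood fit of 2 group means, two-sided, Benjamini-Hochberg over 13272 genes, threshold 0.05). The SE of a log2 change is its size divided by the square root of the F statistic. In data simulated for this comparison over 13272 genes, 50 genes were changed by each fold. The number recovered was 15 (30%) at 1.5-fold, 29 (58%) at 2-fold, 47 (94%) at 4-fold and 45 (90%) at 8-fold. Beside these true calls, 13 of 13072 unchanged genes were called. Counts were drawn independently for each gene, so no simulated library stood apart as knockdown library 2 did. The alternatives were all 8 libraries in 1 fit, 2 other scalings, 2 other filters, DESeq2 1.42.0, limma-voom (limma 3.58.1), edgeR's legacy method, a replicate block and leaving out each library. Counting error covers reads and not molecules.

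Genes were named by a rule: among called genes with a mean of at least 5 CPM, groups that did not overlap and a symbol that is not a clone, the 10 largest rises and the 10 largest falls; the 5 called genes with the highest mean CPM in each direction; the 3 tested members of a list with the lowest p; and the genes of the sort. Other genes were named after their values were seen. A few genes that passed the test are left unnamed. The members and lists were chosen with earlier results of these data known, so a list's count is no independent support for its direction. Some genes, such as Il6, stand in several lists.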

Additional observations from a re-analysis of the deposited data

How the results depend on the processing

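The number of genes called between knockdown and sham libraries turned on the setting. The groups did not overlap in any of the 99, so their sign could not turn when a library was left out and is no sign of stability. The number was 1 higher and 0 lower with all 8 libraries, 113 and 50 with no filter on low counts, and 209 and 102 with DESeq2, which called all 99. Other scalings, filterByExpr, limma-voom and edgeR's legacy method gave from 68 to 73 higher and from 22 to 28 lower. Leaving out 1 library at a time gave from 30 to 157 higher and from 8 to 141 lower genes, and the 2 counts of the 20 named genes against scrambled libraries then each ran from 0 to 15. The fit of knockdown library 3 with the sham libraries, added after the data were seen, called 100 and 43; it assumes that the lone library varies like the sham pair. The cause of these shifts was not tested, except that a fit with fewer libraries has fewer degrees of freedom.

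Sham and knockdown libraries share replicate numbers 1 and 2, which the labels tie to no common batch. Deviations of same-numbered libraries correlated at 0.00766 and 0.00135. With the replicate number as a block, 94 genes were higher and 16 lower, and 62 of the 99 were called; with all 8 libraries and the block 0 rose and 0 fell (edgeR; 336 genes had an unadjusted p under 0.05). The 45 named genes that were called were not called in 191 of 719 alternative fits; of 82 that were not called, 57 of 1302 alternative fits gave a call. The sign of 4 of these turned when a sham library was left out: over the leave-one-out fits the log2 change ran from -0.44 to 0.038 for Scd1, from -0.018 to 0.67 for Dnajb9, from -1.23 to 0.84 for Atp2a1 and from -0.12 to 0.22 for Pdgfra. With 2 sham libraries, changes near 1.5-fold were often not detectable.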

Other observations

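The gene symbols with 0 reads in both sham libraries were counted among those tested. There were 32, of which 25 also had 0 reads in knockdown library 3, and 17 stand on the keratinocyte list. None was called by edgeR (6 at an unadjusted p under 0.05; 2 by DESeq2 and 0 by limma-voom), and their fitted changes rest on the prior count. No tested gene had 0 reads in all 3 knockdown libraries.

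Krt14 and Krt1, keratins of the basal and upper epidermis, had 354 and 289 reads in knockdown library 1, 813 and 426 in knockdown library 2 and 0 in knockdown library 3. In the scrambled libraries Krt14 had 768, 78 and 0 reads and Krt5 377, 161 and 3, so libraries with and without these transcripts stood in both tumour groups. Epcam, an epithelial surface protein, had 9, 8 and 0 reads in the knockdown libraries and 103, 0 and 3 in the scrambled ones. Trp63, the transcription factor of basal epidermis, had 9 and 19 reads in the sham libraries and 87, 50 and 57 in the knockdown libraries, with knockdown library 3 above both sham libraries while Krt5, Krt14 and Krt1 had 0 reads there. Krt10, a keratin of the upper epidermis, had 100 and 119 reads in the sham libraries and 570, 802 and 94 in the knockdown libraries.

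The replicates of a group differed by more than sampling noise. The chi-square per degree of freedom was 34.3 between the sham libraries and from 7.54 to 22.4 between pairs of knockdown libraries, the lowest for knockdown libraries 1 and 3. The descriptions of knockdown libraries 1 and 3 share a prefix that the other 3 libraries lack, and what the prefix stands for is not stated.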
